A study of Mus musculus with 6 samples.

Results

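This account concerns 41 mouse genes of DNA replication and the S phase, out of 35865 genes measured, in cardiac macrophages labelled Tet2 KO or Tet2 WT. The genes were taken by name: transcript identifiers were mapped to GENCODE M21 gene symbols, the listed genes were kept, and their estimated counts and TPM (transcripts per 1e6 transcripts) were summed over transcripts. RNA came from macrophages sorted from digested hearts and descended from donor haematopoietic progenitors on the C57BL/6J strain. The 3 Tet2 KO libraries were labelled as Tet2 deficient (Tet2-/-) and the 3 Tet2 WT libraries as Tet2 sufficient (Tet2+/+). Tet2 is an enzyme that oxidises methylated cytosine in DNA and so promotes its demethylation, and the study concerned clonal haematopoiesis and the ageing heart in mice that had received no conditioning. The sort gate, the age of the animals, the deleted part of Tet2 and whether libraries came from separate animals are not given in the sources used here. The p-values therefore reflect only how far these libraries differ, which may be technical variation.

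Replication starts at origins that were licensed in G1, when the ORC complex, Cdc6 and Cdt1 load the Mcm2 to Mcm7 ring onto DNA. In S phase Cdc45 and the GINS proteins turn that ring into a helicase, polymerase α with primase lays down primers, and polymerases δ and ε extend them on the sliding clamp Pcna. Most tissue macrophages of an adult rest outside the cell cycle, although cardiac macrophages can divide in place and newly arrived monocytes can proliferate. Many of these genes are switched on together at the G1/S transition by E2F transcription factors. This follows once cyclin-dependent kinases, Cdk2 with cyclin E among them, have relieved the block by the retinoblastoma protein.

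Libraries held 37349505 to 55771087 estimated counts. Tet2 itself stood at 81.2, 82.6 and 78.2 CPM (counts per 1e6 counts, TMM-normalised) in Tet2 KO libraries, against 57.5, 76.1 and 60.8 CPM in Tet2 WT libraries. With the deleted part unknown, a count summed over the whole gene does not check the genotype; the difference was 0.32 ± 0.14 on the log2 scale (SE, edgeR adjusted p = 0.159). All 16 pan-macrophage markers were detected in every library of these cells, labelled as macrophages. Their summed level was 33574 to 40970 CPM in Tet2 KO libraries and 19543 to 26751 CPM in Tet2 WT libraries, and 13 of the 16 were called higher in Tet2 KO. Markers of fibroblasts summed to 778 to 1529 CPM in Tet2 KO libraries and 6844 to 12252 CPM in Tet2 WT libraries, none was at 0, and 13 of 14 were called lower. The B cell list summed to 458 to 883 CPM in Tet2 KO libraries and 335 to 438 CPM in Tet2 WT libraries, nearly all of it Ighm; Ighm and Cd79b were called higher, while Pax5 was at 0 in 4 libraries. The erythroid list summed to 347 to 743 CPM in Tet2 KO libraries and 32.2 to 248 CPM in Tet2 WT libraries, with Alas2 called higher. The endothelial, cardiomyocyte, pericyte and smooth muscle, T and NK cell, neutrophil and dendritic cell lists each summed to at most 197 CPM in Tet2 KO libraries and 327 CPM in Tet2 WT libraries. Their called markers were Tek (endothelial) and Abcc9 (pericyte and smooth muscle), lower at -2.59 and -2.26 on the log2 scale, and Csf3r (neutrophil), higher at 0.72. Called or not, 7 endothelial markers lay above 0 and 2 below, so Tek does not give the direction of its list. For pericyte and smooth muscle it was 1 above and 6 below, and for the 3 tested neutrophil markers 2 and 1. The neutrophil sums did not overlap, at 65.6 to 76.4 CPM in Tet2 KO libraries and 37.5 to 51.3 CPM in Tet2 WT libraries. Nearly all of each sum was Csf3r, at 61.2 to 70.7 CPM in Tet2 KO libraries and 34.7 to 47.9 CPM in Tet2 WT libraries. Nkg7, Trac and Cd3e of the T and NK cell list were at 0 in 5, 3 and 1 libraries, and Retnlg, S100a9, Ly6g and S100a8 of the neutrophil list in 4, 3, 2 and 1 libraries; Ccr7 of the dendritic cell list was at 0 in 2. Apart from the comparison with Adgre1 and Csf1r given further on, the part of these differences in the results on replication genes was not tested. In bulk RNA, fewer cells of a type and less RNA per cell cannot be told apart.

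Of the 41 genes, 7 rose in Tet2 KO macrophages and none fell, at an adjusted p under 0.05 in the edgeR quasi-likelihood test over all 16386 tested genes. The 7 were Cdt1, Mcm5, Mcm6, Pold1, Fen1, Rrm2 and E2f1, and 34 were called in neither direction. Set against the macrophage genes Adgre1 and Csf1r, as described further on, none of the 41 was called higher and 7 others were lower. In that comparison 0.104% of all tested genes were called higher and 50.0% lower. Under TMM scaling, 6.11% of all tested genes were called higher and 10.1% lower. All 41 passed the expression filter. The median log2 fold change of the 41 was 0.41, with a range of -0.49 to 1.11, against a median of 0.0025 over all tested genes. It was above 0 for 37 genes and below 0 for Cdc45, Dut, Ccne1 and Ccne2. At an unadjusted p under 0.05 there were 23 higher and 0 lower, against 2261 higher and 2473 lower among all tested genes.

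Summed over the 41 genes, the level was 1629, 1294 and 1442 CPM in Tet2 KO libraries, against 1138, 1108 and 1063 CPM in Tet2 WT libraries. Every Tet2 KO library lay above every Tet2 WT library in this sum. Gene by gene the separation was less complete: for 22 genes all Tet2 KO libraries lay above all Tet2 WT libraries, where 16.4% of all tested genes did so, and for 18 the groups overlapped. Ccne1 alone had all Tet2 KO libraries below, a pattern that 18.1% of all tested genes showed. Within the knockout group, replicate 1 was the highest library for 22 genes and replicate 2 the lowest for 24.

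The count of rising genes depended on single libraries and on the tool. It was 16 without Tet2 KO replicate 2, 4 when Tet2 WT replicate 1 was left out and 3 when Tet2 WT replicate 3 was. DESeq2 called 14 higher, and limma on log2(TPM + 1) called only Rrm2 and E2f1. Fen1 and E2f1 were called in all 6 fits that left out a library, Mcm6 and Rrm2 in 5, Cdt1 in 4, Pold1 in 2 and Mcm5 in 1.

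**Figure D1:**
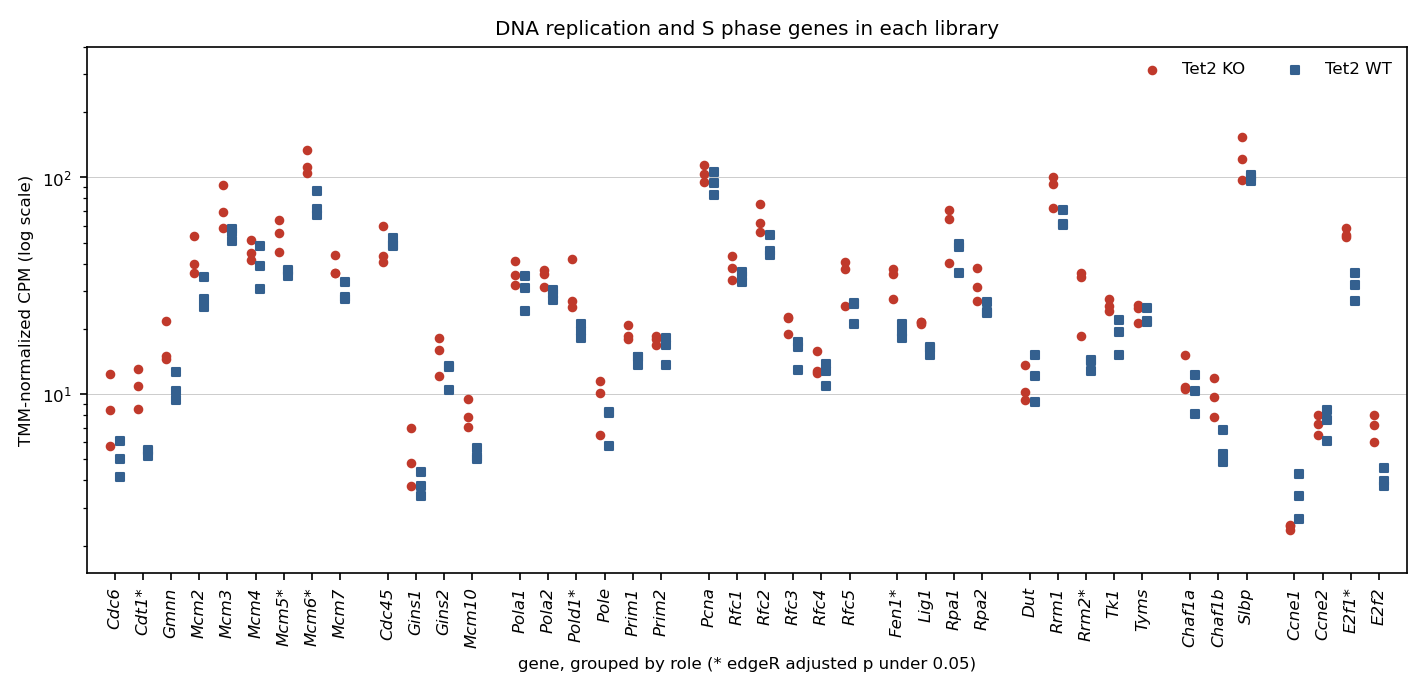
TMM-normalised CPM (log axis) of each of the 41 genes in each library, with Tet2 KO as red circles to the left of Tet2 WT as blue squares, and genes grouped by role from origin licensing to cyclin E and E2F. Asterisks mark the 7 genes called at an adjusted p under 0.05, for which all Tet2 KO libraries lie above all Tet2 WT libraries, while Cdc45, Tyms and Ccne2 overlap.

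**Figure D2:**
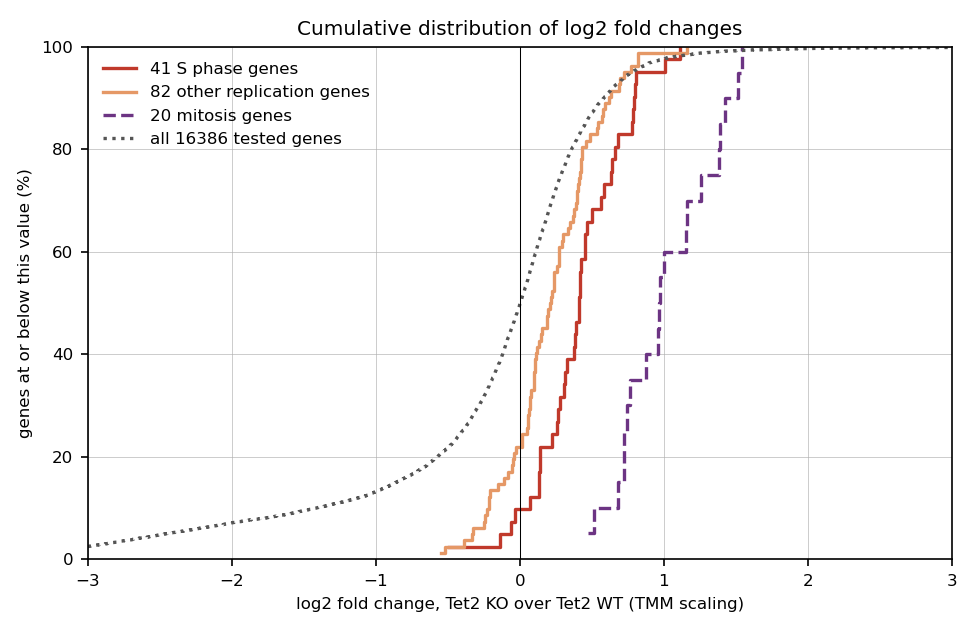
Cumulative share of genes (%) at or below each log2 fold change, Tet2 KO over Tet2 WT, for the 41 S phase genes, 82 other replication genes, 20 mitosis genes and all 16386 tested genes, with the axis cut at -3 and 3. The medians are 0.41, 0.21, 0.97 and 0.0025 in that order. The 82 include 14 genes that hold back S phase.

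Start sites of called genes show what an E2F or CCAAT element looks like in this family. RefSeq promoter windows (GRCm38.p6, 250 bases before and 50 bases after a start) were found for 33 of the 41 genes, 38 windows in all. Both strands were searched for the 8-base E2F words TTTCCCGC, TTTGGCGC, TTTCGCGC and TTTGCCGC, and for CCAAT, the word bound by the factor NF-Y; overlapping matches were counted. Of the roles with a called gene, the gene with the smallest p is shown where its window lay within 100 bases of the start of its most abundant coding transcript, which left out Fen1 and E2f1. The windows are Mcm6 at chr1:128359656-128359955 (minus strand), Pold1 at chr7:44548766-44549065 (minus strand) and Rrm2 at chr12:24708004-24708303 (plus strand). Each is written 5′ to 3′ along the gene, with matches in capitals.
Mcm6: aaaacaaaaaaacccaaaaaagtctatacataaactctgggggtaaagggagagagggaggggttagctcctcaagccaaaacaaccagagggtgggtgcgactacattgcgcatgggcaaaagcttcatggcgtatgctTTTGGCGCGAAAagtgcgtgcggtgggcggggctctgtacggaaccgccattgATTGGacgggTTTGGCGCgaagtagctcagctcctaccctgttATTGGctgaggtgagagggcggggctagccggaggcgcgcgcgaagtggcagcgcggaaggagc
Pold1: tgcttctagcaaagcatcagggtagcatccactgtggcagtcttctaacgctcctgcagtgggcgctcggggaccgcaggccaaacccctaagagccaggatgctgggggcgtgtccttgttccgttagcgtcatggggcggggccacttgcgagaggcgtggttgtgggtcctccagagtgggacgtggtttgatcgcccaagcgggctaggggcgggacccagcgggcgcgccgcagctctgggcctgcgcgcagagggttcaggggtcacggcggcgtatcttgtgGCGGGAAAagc
Rrm2: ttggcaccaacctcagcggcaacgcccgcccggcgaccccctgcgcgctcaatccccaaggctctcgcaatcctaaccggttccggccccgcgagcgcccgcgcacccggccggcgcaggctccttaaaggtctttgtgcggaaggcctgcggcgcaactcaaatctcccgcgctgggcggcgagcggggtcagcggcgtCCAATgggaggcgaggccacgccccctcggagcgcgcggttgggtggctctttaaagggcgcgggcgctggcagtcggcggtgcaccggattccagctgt

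Mcm6 held 3 E2F matches, at positions -110, -106 and -47 from the RefSeq start, the first overlapping the second, and CCAAT matches at -57 and -14. Pold1 had a single E2F match at 39, downstream of the start, and no CCAAT. Rrm2 had no E2F word and a CCAAT at -50. An E2F word occurred in 11 of the 38 windows (28.9%), against 2.26% of all 32851 windows and 3.49% of the 15042 windows of tested genes. CCAAT occurred in 21 of the 38 windows (55.3%), against 37.4% of all windows. By gene, an E2F word was found for 4 of the 7 called genes (Cdt1, Mcm5, Mcm6 and Pold1) and for 7 of the 26 uncalled genes with a window. With only windows within 100 bases of the main coding start, which leaves out Fen1 and E2f1, it was 4 of 5 called and 5 of 22 uncalled genes. The difference was not tested. The windows found for other replication genes, described further on, held an E2F word in 22 of 83 (26.5%), a share close to that of the 41 genes, and CCAAT in 41 of 83 (49.4%). The windows of mitosis genes held an E2F word in 1 of 17 and CCAAT in 14 of 17. These matches describe the sequence and say nothing on binding in these cells.

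The licensing genes had the most calls of any role. All 9 had a log2 fold change above 0, with a median of 0.58, and 3 of the 9 rose. Mcm6 (ENSMUSG00000026355.11, GRCm38 chr1:128331590-128359664, minus strand), a subunit of the helicase ring that holds the E2F words shown above, was at 134, 105 and 112 CPM in Tet2 KO libraries, against 86.3, 67.2 and 71.7 CPM in Tet2 WT libraries. Its groups did not overlap, and it rose by 0.64 ± 0.15 on the log2 scale (SE, edgeR adjusted p = 0.0151). Cdt1 (ENSMUSG00000006585.3, chr8:122568015-122573554, plus strand), the loading factor that brings the ring to the origin, rose by 1.01 ± 0.24 on the log2 scale (edgeR adjusted p = 0.0173). Mcm5 (ENSMUSG00000005410.6, chr8:75109569-75128439, plus strand), another ring subunit, rose by 0.58 ± 0.15 (edgeR adjusted p = 0.0251).

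The uncalled ring subunits were not uniform. Mcm4 had the smallest difference of the ring, at 51.5, 41.4 and 44.9 CPM in Tet2 KO libraries, against 48.5, 30.5 and 39.0 CPM in Tet2 WT libraries. Its groups overlapped, and the log2 fold change was 0.22 ± 0.18 (edgeR adjusted p = 0.474). Mcm2, Mcm3 and Mcm7 lay at log2 fold changes of 0.57, 0.41 and 0.39, with all Tet2 KO libraries above all Tet2 WT libraries but adjusted p of 0.0684, 0.140 and 0.106. Gmnn (geminin), which binds Cdt1 and blocks relicensing after S phase starts, lay at 0.66 ± 0.22 on the log2 scale (edgeR adjusted p = 0.0707). Cdc6, the ATPase that loads the ring with ORC, had 0.81 ± 0.32 (edgeR adjusted p = 0.121).

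Among the 4 genes that turn the loaded ring into a moving helicase, none was called. Cdc45, the factor that joins the ring and GINS into the active helicase, was at 59.8, 40.8 and 43.4 CPM in Tet2 KO libraries, against 52.8, 49.0 and 48.1 CPM in Tet2 WT libraries. Its Tet2 KO libraries lay on both sides of the Tet2 WT libraries, and its -0.06 ± 0.16 on the log2 scale (edgeR adjusted p = 0.856) was the only one of the role below 0. Gins1 and Gins2, subunits of the GINS complex, lay at 0.42 and 0.31. Mcm10, needed to start the helicase, lay at 0.63 ± 0.24 (edgeR adjusted p = 0.104), with no overlap between groups.

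Of the 6 polymerase and primase genes, 1 rose. Pold1 (ENSMUSG00000038644.14, chr7:44532746-44548849, minus strand), the catalytic subunit of polymerase δ, was at 42.1, 27.0 and 25.3 CPM in Tet2 KO libraries, against 19.5, 21.1 and 18.1 CPM in Tet2 WT libraries. The groups did not overlap, although replicate 1 of Tet2 KO stood well above the others, and the rise was 0.68 ± 0.21 on the log2 scale (edgeR adjusted p = 0.0499). Without that library it was 0.42 ± 0.15 (edgeR adjusted p = 0.125). Prim2, the large primase subunit, was at 18.0, 18.6 and 16.8 CPM in Tet2 KO libraries, against 16.8, 18.2 and 13.6 CPM in Tet2 WT libraries. The ranges of Prim2 overlapped, and the difference was 0.14 ± 0.17 on the log2 scale (edgeR adjusted p = 0.673). Pola1 and Pola2 (polymerase α), Prim1 (the primase that makes the RNA primer) and Pole (the catalytic subunit of polymerase ε) lay between 0.27 and 0.41.

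None of the 6 clamp and clamp loader genes was called. Pcna, the ring on which the polymerases and many other factors ride and a common marker of S phase, was at 114, 104 and 95.1 CPM in Tet2 KO libraries, against 94.8, 106 and 82.9 CPM in Tet2 WT libraries. Both groups covered much the same range, and the log2 fold change was 0.14 ± 0.14 (edgeR adjusted p = 0.555). Rfc4, a subunit of the loader that opens the Pcna ring, had the largest p of the role, at 15.9, 12.8 and 12.6 CPM in Tet2 KO libraries, against 13.9, 11.0 and 12.8 CPM in Tet2 WT libraries. Its groups overlapped as well, at 0.13 ± 0.19 on the log2 scale (edgeR adjusted p = 0.714). The other loader subunits lay at 0.14 (Rfc1), 0.42 (Rfc2), 0.45 (Rfc3) and 0.50 (Rfc5).

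Fen1 (ENSMUSG00000024742.15, chr19:10199132-10204169, minus strand), the flap nuclease that trims Okazaki fragments, rose, and it was the only call among the 4 genes of single-strand binding and fragment joining. It was at 37.8, 27.6 and 35.7 CPM in Tet2 KO libraries, against 19.5, 21.1 and 18.2 CPM in Tet2 WT libraries. No Tet2 KO library of Fen1 came down to the Tet2 WT range, and the rise was 0.78 ± 0.16 on the log2 scale (edgeR adjusted p = 0.0101). Fen1 shares 1909 exonic bases with Gm10143 on the opposite strand, and the labels do not say whether counting used strand, so reads from the pair cannot be told apart. Rpa1, the large subunit of the RPA complex that coats single-stranded DNA, was at 71.0, 40.2 and 64.0 CPM in Tet2 KO libraries, against 47.8, 36.2 and 49.4 CPM in Tet2 WT libraries. Replicate 2 of Tet2 KO lay inside the Tet2 WT range, and the log2 fold change was 0.39 ± 0.22 (edgeR adjusted p = 0.275). Lig1, which seals the fragments, and Rpa2 lay at 0.42 and 0.38.

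Nucleotide supply held both the highest log2 fold change of the 41 genes and an enzyme below 0. Rrm2 (ENSMUSG00000020649.11, chr12:24708241-24714146, plus strand), the S phase subunit of ribonucleotide reductase, was at 36.2, 18.5 and 34.8 CPM in Tet2 KO libraries, against 14.2, 14.3 and 12.8 CPM in Tet2 WT libraries. The groups were apart, with replicate 2 of Tet2 KO nearest to the Tet2 WT libraries, and Rrm2 rose by 1.11 ± 0.24 on the log2 scale (edgeR adjusted p = 0.0130). Its partner subunit Rrm1 had 0.47 ± 0.15 (edgeR adjusted p = 0.0654).

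Thymidylate enzymes were less far from 0 than Rrm2. Tyms, which makes thymidylate from deoxyuridylate, was at 25.7, 21.2 and 24.9 CPM in Tet2 KO libraries, against 25.1, 21.8 and 21.6 CPM in Tet2 WT libraries, which differed by 0.07 ± 0.15 on the log2 scale (edgeR adjusted p = 0.819). Dut, which breaks down dUTP so that it is not built into DNA, was at 13.7, 9.41 and 10.2 CPM in Tet2 KO libraries, against 15.2, 12.1 and 9.23 CPM in Tet2 WT libraries. Both genes overlapped between groups, and Dut lay at -0.14 ± 0.24 on the log2 scale (edgeR adjusted p = 0.776). Tk1, the thymidine kinase of the salvage pathway, had 0.45 ± 0.17 (edgeR adjusted p = 0.111).

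No chromatin assembly gene was called. Chaf1a, the large subunit of the CAF-1 histone chaperone, was at 10.8, 10.6 and 15.2 CPM in Tet2 KO libraries, against 10.4, 12.2 and 8.07 CPM in Tet2 WT libraries. Its groups overlapped, at 0.26 ± 0.24 on the log2 scale (edgeR adjusted p = 0.539). Chaf1b, the middle subunit of CAF-1, had 0.79 ± 0.25 (edgeR adjusted p = 0.0658) and no overlap. Slbp, which binds the stem-loop of histone mRNA, had 0.31 ± 0.16 (edgeR adjusted p = 0.254).

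Of the 4 G1/S regulators, 1 rose. E2f1 (ENSMUSG00000027490.17, chr2:154559407-154569892, minus strand), an activating E2F factor, was at 58.3, 53.1 and 54.1 CPM in Tet2 KO libraries, against 26.9, 36.1 and 32.1 CPM in Tet2 WT libraries. The gap between the groups was wider than the spread within either, and E2f1 had the smallest adjusted p of the 41 genes, with a rise of 0.80 ± 0.14 on the log2 scale (edgeR adjusted p = 0.00481). E2f2, another activator, had 0.79 ± 0.25 (edgeR adjusted p = 0.0626).

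Ccne1, cyclin E1, was at 2.48, 2.49 and 2.38 CPM in Tet2 KO libraries, against 4.29, 3.38 and 2.65 CPM in Tet2 WT libraries. All Tet2 KO libraries lay below, replicate 3 of Tet2 WT only just above them, and the log2 fold change was -0.49 ± 0.32 (edgeR adjusted p = 0.369). Ccne2, cyclin E2, was at 7.98, 6.46 and 7.26 CPM in Tet2 KO libraries, against 8.49, 6.08 and 7.63 CPM in Tet2 WT libraries. Here the Tet2 KO libraries fell inside the Tet2 WT range, at -0.03 ± 0.24 on the log2 scale (edgeR adjusted p = 0.949).

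The second comparison set the same genes against 2 macrophage genes, Adgre1, which encodes the F4/80 surface antigen, and Csf1r, the receptor for the growth factor on which macrophages depend. Adgre1 was at 1389, 1157 and 1446 CPM in Tet2 KO libraries, against 666, 912 and 763 CPM in Tet2 WT libraries. It rose by 0.77 ± 0.16 on the log2 scale (edgeR adjusted p = 0.0112). Csf1r was at 3289, 2960 and 3528 CPM in Tet2 KO libraries, against 1482, 2130 and 2104 CPM in Tet2 WT libraries, and rose by 0.77 ± 0.18 (edgeR adjusted p = 0.0167).

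Relative to Adgre1 and Csf1r, no replication gene was higher in Tet2 KO and 7 were lower: Cdc45, Pcna, Rfc1, Tyms, Dut, Ccne1 and Ccne2. Of all tested genes, 0.104% were called higher and 50.0% lower on this scale. At an unadjusted p under 0.05, 0 of the 41 were higher, where only 30 of all 16386 tested genes were. DESeq2 and limma voom also called 0 of the 41 higher. The median log2 fold change of the 41 was -0.38, against -0.78 over all tested genes. Only Cdt1, Rrm2 and E2f1 were above 0, at 0.23 ± 0.35, 0.29 ± 0.28 and 0.03 ± 0.22 (edgeR adjusted p = 0.574, 0.369 and 0.910). When the summed counts of the other pan-macrophage markers set the scale, Cdc6, Fen1, Chaf1b and E2f2 lay above 0 too, by at most 0.081. Most of that sum was Lyz2, at 18948 to 25245 CPM in Tet2 KO libraries and 11655 to 16078 CPM in Tet2 WT libraries. Scaling to other genes moves the fold change of every gene by nearly the same amount, so this comparison is not independent of the first, and it takes Adgre1 and Csf1r as measured without error.

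Per 1000 counts of Adgre1 and Csf1r (their geometric mean), the 41 genes together had 762, 699 and 638 counts in Tet2 KO libraries, against 1145, 795 and 839 in Tet2 WT libraries. All Tet2 KO libraries lay below all Tet2 WT libraries in this sum, with Tet2 WT replicate 1 far above the rest. For 15 genes the Tet2 KO libraries were all below and for none all above, where 64.7% of all tested genes were all below and 0.360% all above, and 26 overlapped.

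Pcna had 53.4, 55.9 and 42.1 counts per 1000 in Tet2 KO libraries, against 95.4, 75.9 and 65.4 in Tet2 WT libraries. Its groups, which overlapped in CPM, were apart on this scale, and it was lower by -0.64 ± 0.21 on the log2 scale (edgeR adjusted p = 0.0185). Cdc45 had 28.0, 22.1 and 19.2 in Tet2 KO libraries, against 53.2, 35.1 and 38.0 in Tet2 WT libraries. It had the smallest adjusted p of the 41 genes in this comparison, with -0.87 ± 0.24 on the log2 scale (edgeR adjusted p = 0.00694). Dut had 6.39, 5.09 and 4.51 in Tet2 KO libraries, against 15.2, 8.71 and 7.28 in Tet2 WT libraries, and differed by -0.97 ± 0.33 (edgeR adjusted p = 0.0213). Ccne1 had 1.16, 1.35 and 1.05 in Tet2 KO libraries, against 4.32, 2.42 and 2.09 in Tet2 WT libraries, and differed by -1.31 ± 0.45 (edgeR adjusted p = 0.0224).

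In these 4 genes every Tet2 KO library lay below every Tet2 WT library, as in 64.7% of all tested genes on this scale. The exact two-sided permutation p of the log2 difference from both macrophage genes was 0.1 for each, the smallest that 20 assignments of labels allow. That p follows from the separation and adds no support to it. E2f1 on the same scale had 27.3, 28.7 and 23.9 counts in Tet2 KO libraries, against 27.1, 25.9 and 25.3 in Tet2 WT libraries, which overlapped. Leaving out Tet2 KO replicate 3 left 0 genes lower, leaving out Tet2 WT replicate 1 left 1, and leaving out Tet2 WT replicate 2 gave 11.

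**Figure D3:**
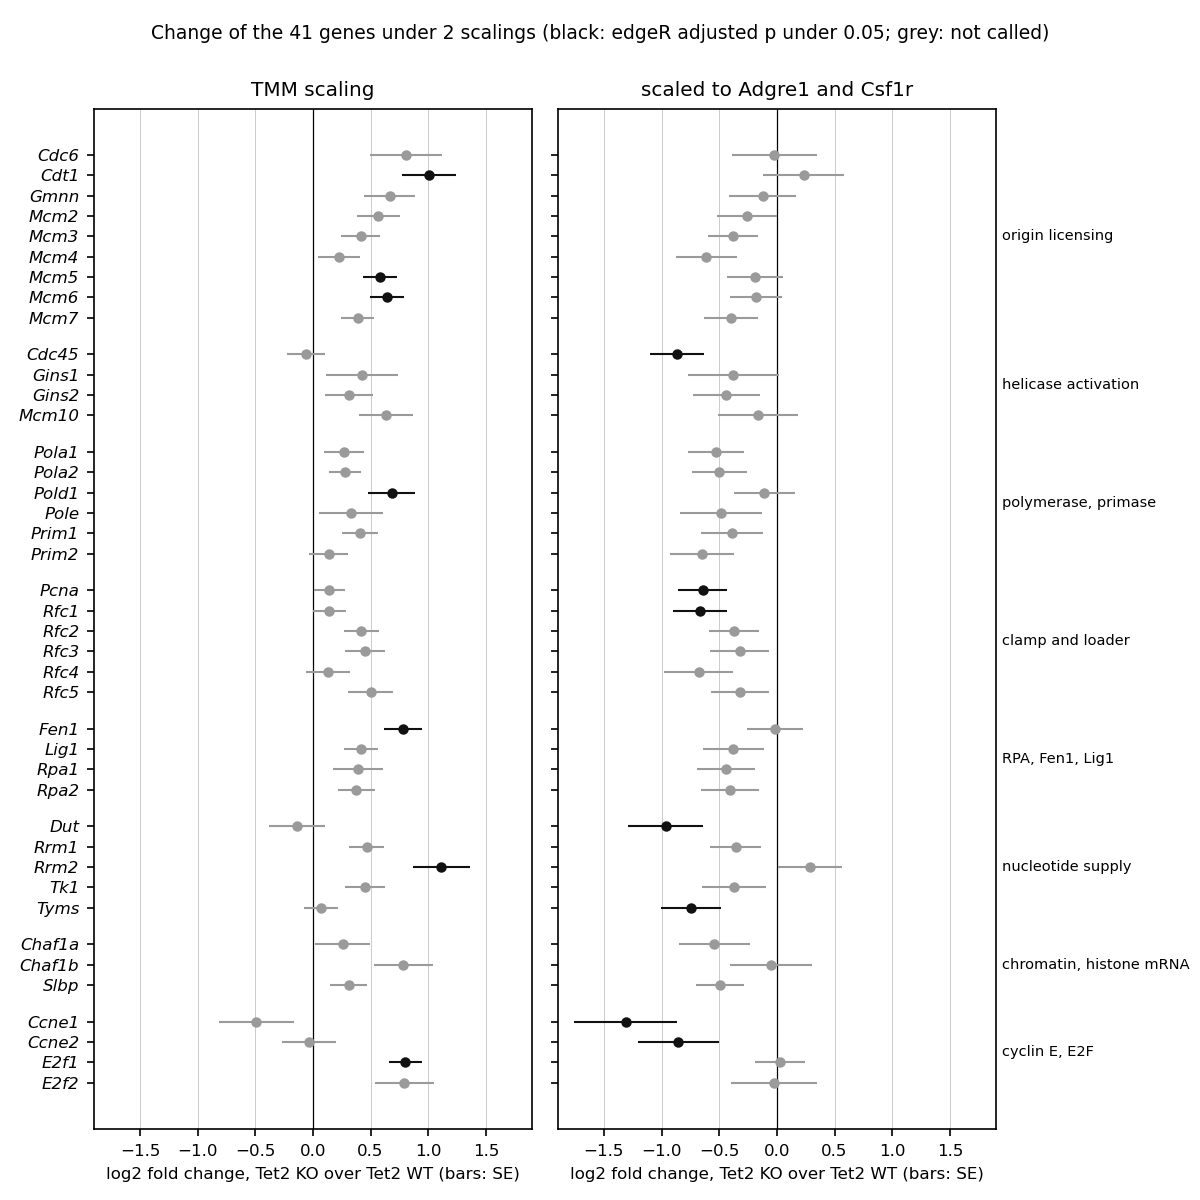
Log2 fold change, Tet2 KO over Tet2 WT, of the 41 genes by role, with bars of 1 SE, scaled by TMM on the left and to Adgre1 and Csf1r on the right; black marks an adjusted p under 0.05. On the left 7 genes are called, all above 0, and on the right 7 others are called, all below 0.

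Counts summed per gene include transcripts that encode no protein. The 41 genes had 239 transcripts in the files, of which 101 are annotated as protein-coding and 97 as retaining an intron. For 25 genes at least 80% of the TPM lay in coding transcripts in both groups, and Mcm4, Fen1 and E2f1 reached 100% in both. For Rfc2, Cdc45, Gins2, Rfc1 and Tyms it was under 50% in both groups.

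Cdc45 was an extreme case, with 14.4% ± 3.1 of its TPM in coding transcripts in Tet2 KO and 10.8% ± 4.3 in Tet2 WT (SD, n = 3 each). A retained-intron transcript at its 5′ end, ENSMUST00000231819.1 (GRCm38 chr16:18810108-18811591, minus strand), was at 49.8, 30.3 and 33.0 TPM in Tet2 KO libraries, against 44.7, 45.6 and 47.2 TPM in Tet2 WT libraries. The main coding transcript, ENSMUST00000000028.13 (chr16:18780447-18811972), was at 4.68, 5.29 and 5.70 TPM in Tet2 KO libraries, against 6.17, 3.85 and 4.41 TPM in Tet2 WT libraries. Both transcripts overlapped between groups. Counting coding transcripts alone, the log2 fold change of Cdc45 was 0.26 ± 0.29 (edgeR adjusted p = 0.623), the other side of 0 from the value over all transcripts. On the scale of Adgre1 and Csf1r it was then -0.60 (edgeR adjusted p = 0.192) and no longer called.

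Rfc2 had 11.0% ± 1.4 of its TPM in coding transcripts in Tet2 KO and 11.3% ± 0.92 in Tet2 WT (SD, n = 3 each). Its most abundant transcript was the retained-intron ENSMUST00000201464.1 (GRCm38 chr5:134594119-134598328, plus strand), at 42.0, 31.3 and 34.6 TPM in Tet2 KO libraries, against 27.1, 28.7 and 27.2 TPM in Tet2 WT libraries. All Tet2 KO libraries of that transcript were higher, which says nothing of the coding one: ENSMUST00000023867.7 was at 9.56, 5.98 and 7.94 TPM in Tet2 KO libraries, against 6.26, 7.55 and 5.94 TPM in Tet2 WT libraries, and overlapped.

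**Figure D4:**
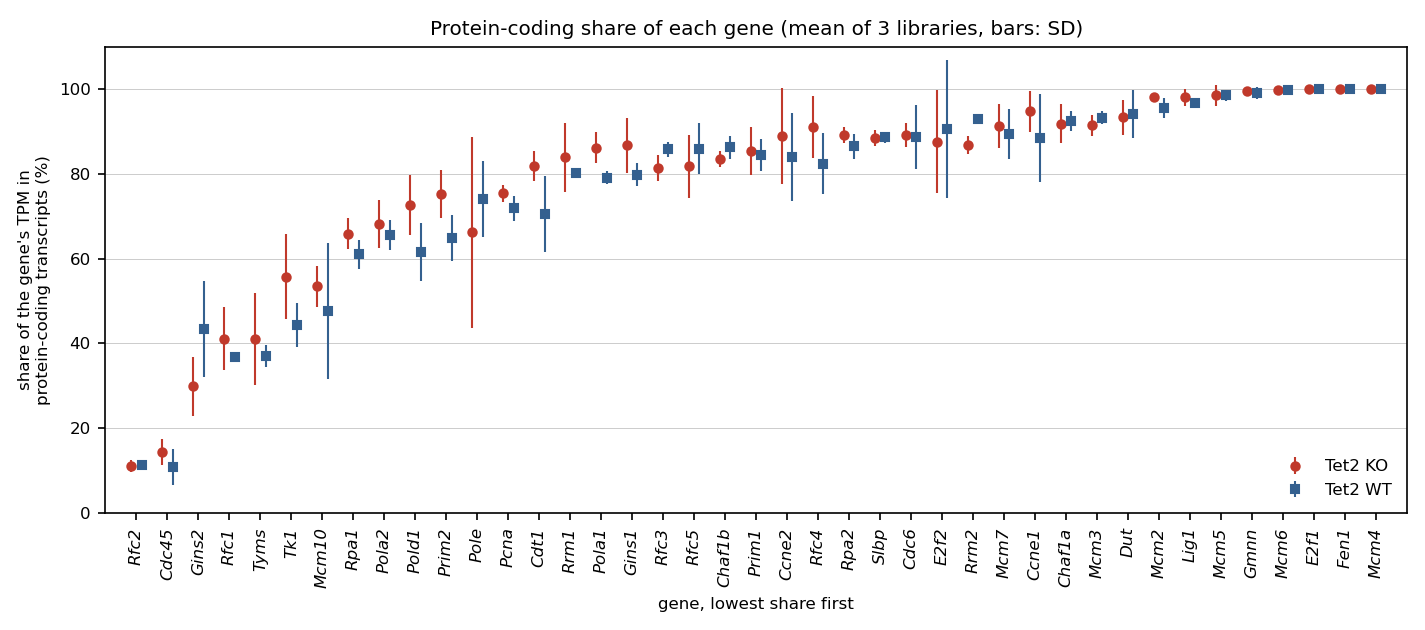
Share of each gene's TPM (%) in protein-coding transcripts, mean of 3 libraries with bars of 1 SD, Tet2 KO as red circles left of Tet2 WT as blue squares, genes ordered by share. Rfc2 and Cdc45 lie under 15% in both groups and Mcm4, Fen1 and E2f1 at 100%; an SD bar may pass 100% although no library can.

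With coding transcripts alone, a setting added after the data were seen, 6 of the 41 genes rose and all 6 were among the 7, Pold1 being lost at an edgeR adjusted p of 0.0586. In that fit 6.04% of 14690 tested genes were called higher and 10.6% lower. The median log2 fold change of the 41 was 0.42. On the scale of Adgre1 and Csf1r, 4 genes were lower (Pcna, Rfc1, Dut and Ccne1), all among the 7, where 49.7% of tested genes were lower and 0.0885% higher. Coding TPM, which takes length into account, also orders the genes by level. Slbp (89.2 TPM in Tet2 KO, 82.2 TPM in Tet2 WT), Pcna (87.0 and 85.8 TPM) and Mcm6 (53.5 and 38.5 TPM) were the most abundant in Tet2 KO libraries, and Ccne1 (1.67 and 2.58 TPM), Pole (1.73 and 2.01 TPM) and E2f2 (1.94 and 1.25 TPM) the least.

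Overlapping annotation touched 14 of the 41 genes, 13 of them on the opposite strand. Besides Fen1 these include Chaf1a, which shares 4648 exonic bases with Ubxn6, Gins2 with 2758 shared with Gse1, and Rfc2 with 952 shared with Lat2. Without a known strand setting, the counts of these genes may include reads of the neighbour.

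Of 82 other replication and G1/S genes, all of them tested, 9 rose and 1 fell, and the median was 0.21 on the log2 scale. Over all tested genes 6.11% were called higher and 10.1% lower under TMM scaling, with a median of 0.0025. The 82 include 14 genes that hold back S phase, given further on, and 3 of the 9 were among those. Relative to Adgre1 and Csf1r, 0 of the 82 were higher and 32 lower, where 0.104% of all tested genes were higher and 50.0% lower. Of the origin-firing genes, Ccna2 (cyclin A2, the S phase cyclin) rose by 0.69 ± 0.15 on the log2 scale (edgeR adjusted p = 0.0116) and Dbf4, the activator of the Cdc7 kinase, by 0.59 ± 0.18 (edgeR adjusted p = 0.0489). At the fork, Pold3, an accessory subunit of polymerase δ, rose by 0.43 ± 0.12 (edgeR adjusted p = 0.0331) and Dna2, a nuclease and helicase, by 0.77 ± 0.22 (edgeR adjusted p = 0.0433). None of the 9 ORC and related licensing genes, 7 chromatin genes or 13 further G1/S regulators, E2f7 and E2f8 among them, was called.

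Nucleotide genes outside the 41 went both ways. Dck, the deoxycytidine kinase of the salvage pathway, was at 99.3, 105 and 79.3 CPM in Tet2 KO libraries, against 56.0, 54.2 and 50.1 CPM in Tet2 WT libraries, and rose by 0.82 ± 0.14 on the log2 scale (edgeR adjusted p = 0.00353). Umps, which completes UMP synthesis, rose by 0.46 ± 0.12 (edgeR adjusted p = 0.0248). Cad, the enzyme of the first steps of pyrimidine synthesis, was at 16.4, 15.6 and 14.7 CPM in Tet2 KO libraries, against 21.6, 21.9 and 24.7 CPM in Tet2 WT libraries. Its groups were apart, and Cad fell, at -0.55 ± 0.15 on the log2 scale (edgeR adjusted p = 0.0354), a call that was lost whenever a library was left out.

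Of the 14 genes among the 82 listed as holding back S phase, 3 rose and none fell, where 6.11% of all tested genes rose and 10.1% fell. Samhd1, which degrades dNTPs and is prominent in resting macrophages, was at 258, 206 and 228 CPM in Tet2 KO libraries, against 116, 149 and 127 CPM in Tet2 WT libraries. The groups of Samhd1 did not overlap, and it rose by 0.82 ± 0.14 on the log2 scale (edgeR adjusted p = 0.00425). Cdkn1a (p21, an inhibitor of cyclin-dependent kinases) rose by 0.54 ± 0.14 (edgeR adjusted p = 0.0256) and Rbl1 (p107, a relative of the retinoblastoma protein) by 0.72 ± 0.16 (edgeR adjusted p = 0.0151). Set against Adgre1 and Csf1r these 3 lay at 0.04, -0.24 and -0.07, and none was called. On that scale 0 of the 14 were called higher and 6 lower, 12 lay below 0, and the median was -0.45. Over all tested genes 0.104% were called higher and 50.0% lower on it, with a median of -0.78.

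Mitosis genes, which act after S phase, were set beside the replication genes. Of 20, 17 rose and none fell, and none overlapped between groups. The median of their log2 fold changes was 0.97 and the range 0.47 to 1.55. Under TMM scaling 6.11% of all tested genes were called higher and 10.1% lower. For 16.4% of all tested genes every Tet2 KO library lay above every Tet2 WT library. Mki67, Cdk1 and Bub1 were the 3 mitosis genes not called. Cdc20, which starts anaphase with its ubiquitin ligase, had 32.5, 16.7 and 23.8 CPM in Tet2 KO libraries, against 7.82, 10.2 and 9.21 CPM in Tet2 WT libraries. Set against Adgre1 and Csf1r, 0 of the 20 were called in either direction and 3 were higher at an unadjusted p under 0.05. Of all 16386 tested genes, 0.104% were called higher and 50.0% lower on that scale, and 30 were higher at an unadjusted p under 0.05. The median of the 20 was 0.19, where that of the 41 replication genes was -0.38. The difference between the lists was not tested. Of 67 replication-dependent histone genes, 44 were tested, 1 was higher and 1 lower, and the median was 0.25 on the log2 scale; most histone mRNAs carry no poly(A) tail, and the labels do not say how RNA was selected.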

How the data were processed

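RNA of 3 Tet2 KO and 3 Tet2 WT libraries of sorted cardiac macrophages was measured. Per the submitters' processing notes, the authors trimmed reads with Trim Galore 0.6.4 and ran kallisto 0.44.0 against the transcriptome of GRCm38. Per the file headers, the authors deposited an estimated count and a TPM value per transcript; the estimated counts carry no scaling, while deposited TPM add up to a common total per library. The annotation release and strand setting are not given in the sources used here.

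Among 118783 transcripts, 116622 (98.2%) matched GENCODE M21 by identifier and 2161 were left out. Counts were summed over 35865 genes and rounded. Genes kept by edgeR's expression filter (16386) were scaled by TMM and tested by edgeR 4.0.16's robust quasi-likelihood test (R 4.3.3) in a model of genotype alone, with Benjamini-Hochberg adjustment across the tested genes; calls were made at an adjusted p under 0.05. In the second comparison the effective library size was the geometric mean of Adgre1 and Csf1r counts. Single-gene permutation tests used log2(CPM + 0.5). Standard errors were taken as the log2 fold change over the root of F. Only the edgeR fit with TMM scaling was tested on simulated data. Estimated counts of 37349505 to 55771087 per library and 3 libraries per group set the precision. Libraries of a genotype differed beyond sampling noise (chi-square per gene of at least 70.3). The replicate numbers were not treated as pairs.

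The members, roles, marker lists and other gene lists were chosen with earlier results of these data known. Per role, library values are given for the called gene with the smallest p in each comparison, the gene with the largest p and any that went against its role; others are given in brief, and of the other lists at most 3 called genes per role and direction and the called brakes. The remaining genes shown (Pcna under TMM scaling, Cdc20, the uncalled mitosis genes, and the transcripts) were chosen after their values were seen. Alternatives were RLE and upper-quartile scaling, no filter and a stricter filter (CPM of at least 1 in 3 libraries), the replicate number as a block, each library left out, length-scaled TPM counts, DESeq2 1.42.0, limma 3.58.1 voom, limma-trend on log2 TPM with 1 or 0.1 added, and for the second comparison scaling to Adgre1, Csf1r or the other pan-macrophage markers. Coding transcripts alone were added after seeing the data. Of the marker genes, 2 are not reported here.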

Additional observations from a re-analysis of the deposited data

How the results depend on the processing

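The 7 higher and 0 lower replication genes became 14 higher with DESeq2, 2 under limma with either TPM pseudocount (0.1 or 1), 0 higher and 7 lower when scaled to Adgre1 and Csf1r, and 3 to 16 higher with a library left out, with 0 lower in each of those 6 fits. Relative to Adgre1 and Csf1r, the 7 lower genes became 4 with coding transcripts only and 0 to 11 with a library left out. The 9 other replication genes that rose became 3 under limma on either TPM scale, 0 when scaled to Adgre1 and Csf1r and 2 to 14 with a library left out. The 1 that fell became 2 with DESeq2, 2 under limma on either TPM scale, 2 with the stricter filter, 32 when scaled to Adgre1 and Csf1r, and 0 with length-scaled TPM counts, without the low-count filter, with the replicate block and with each library left out (0 to 0). Over all genes, the split of 1001 higher and 1652 lower became 400 and 1922 under limma on log2(TPM + 0.1), 384 and 1930 with a pseudocount of 1, 17 and 8194 when scaled to Adgre1 and Csf1r, which moved the median of all genes to -0.78, and 350 to 1402 higher and 1032 to 1739 lower with a library left out. The cause was not tested.

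Whether the replicate numbers pair the libraries was not settled. Same-numbered libraries correlated at 0.078, 0.17 and 0.059 in their deviations from the group means, and differently numbered ones at -0.13 to 0.067. Tet2 KO replicates 1 and 2 correlated best with the Tet2 WT library of the same number. Tet2 KO replicate 3 correlated best with Tet2 WT replicate 1. With the numbers as a block, 7 replication genes were higher and 0 lower, 0 and 7 relative to Adgre1 and Csf1r, and 789 genes higher and 1558 lower in all.

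Uncalled values near 0 changed sign. Under TMM scaling, Cdc45 was 0.26 with coding transcripts only and -0.24 to 0.047 with a library left out. With limma and a TPM pseudocount of 0.1 or 1, in that order, Pole was -0.13 and -0.093, Pcna -0.055 and -0.055, Rfc4 -0.13 and -0.13 and Rfc1 -0.16 and -0.15; Rfc1 was -0.015 with length-scaled TPM counts. Leaving out a library gave Dut -0.31 to 0.063 and Ccne2 -0.15 to 0.088. Relative to Adgre1 and Csf1r, limma voom gave Cdc6 0.013, Chaf1b 0.036 and E2f2 0.021. Scaling to the pan-macrophage markers gave Cdc6 0.081, Fen1 0.074, Chaf1b 0.058 and E2f2 0.066, and the replicate block gave E2f2 0.0057. Leaving out a library on that relative scale gave Cdc6 -0.27 to 0.15, Fen1 -0.11 to 0.13, Chaf1b -0.20 to 0.29, E2f2 -0.18 to 0.23, Pold1 -0.34 to 0.069, Cdt1 -0.030 to 0.43, Gmnn -0.31 to 0.0097, Mcm2 -0.42 to 0.062, Mcm6 -0.35 to 0.11 and E2f1 -0.027 to 0.10. Of 697 single-gene values under alternatives of the first comparison, 634 kept their direction and side of the threshold, 28 lost and 19 gained a call; of 615 in the second, 547 did, 27 lost and 15 gained a call. The 3 libraries per genotype limit what could be called, and low genes such as Ccne1 have the widest errors.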
